A study of Mus musculus with 6 samples.

Results

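Binding of TAF4A had been mapped by CUT&RUN in muscle stem cells (MuSCs) of wild-type C57BL/6 mice, cultured in vitro and in the activated and proliferating state. Of the 900 genes listed for the 1131 TAF4A peaks, 78 carried 2 or more peaks and are described here, with their 176 peaks. They were chosen by the number of peaks listed for a gene ID. Another 11 genes with several peaks, 10 of them histone genes, were left out. The peak number was read from the same 3 TAF4A libraries as the counts, so peak number, count and width are given as descriptions. The study also holds 3 libraries made with IgG, an antibody without a target in the cells, whose counts were not analysed here, so no fold over IgG is given. According to the study, the TAF4A libraries are biological replicates.

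TAF4A is a subunit of TFIID, the general transcription factor that binds core promoters and brings RNA polymerase II to the start of genes. The authors assume that their peaks mainly reflect TAF4A outside TFIID, because the antibody may not easily reach it within that complex. In CUT&RUN, a nuclease tethered to the antibody cuts the DNA next to the bound protein, and the released fragments are sequenced. Many mammalian genes have more than 1 promoter, and regulatory elements such as enhancers can lie far from the gene they act on.

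Depth was low. Over all peaks, TAF4A replicate 1 had 47723 counts, replicate 2 had 24826 and replicate 3 had 32128, and the 176 peaks of the 78 genes held 20.7%, 22.5% and 19.3% of them. A count of 10 or more in each library was reached by 126 of these 176 peaks. Among marker genes, peaks were listed for 4 of 10 muscle stem cell genes (Myod1, Des, Chrna1 and Itga7, each with 1 peak) and for 0 of 3 fibro-adipogenic, 0 of 3 endothelial and 0 of 3 blood genes. A peak is no measure of expression. Replicate 1 stood apart at the 2 peaks listed for Setd5, as given below.

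Most of the 78 genes carried a pair of peaks. Exactly 2 peaks were listed for 66 genes, 3 for 5 genes (Hspa1b, Ier5, Junb, Plk2 and Tuba1b), 4 for 6 genes (Cirbp, Frmd8os, Malat1, Polr2a, Tlcd2 and Tnrc18) and 5 for Id1. GENCODE classes 71 of the 78 as protein-coding. The other 7 were Malat1, Frmd8os, Nctc1, AC166654.1, 1700025L06Rik, 2610105M22Rik and the small RNA gene Gm25720, and the deposited table gives none of these a symbol.

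**Figure D1:**
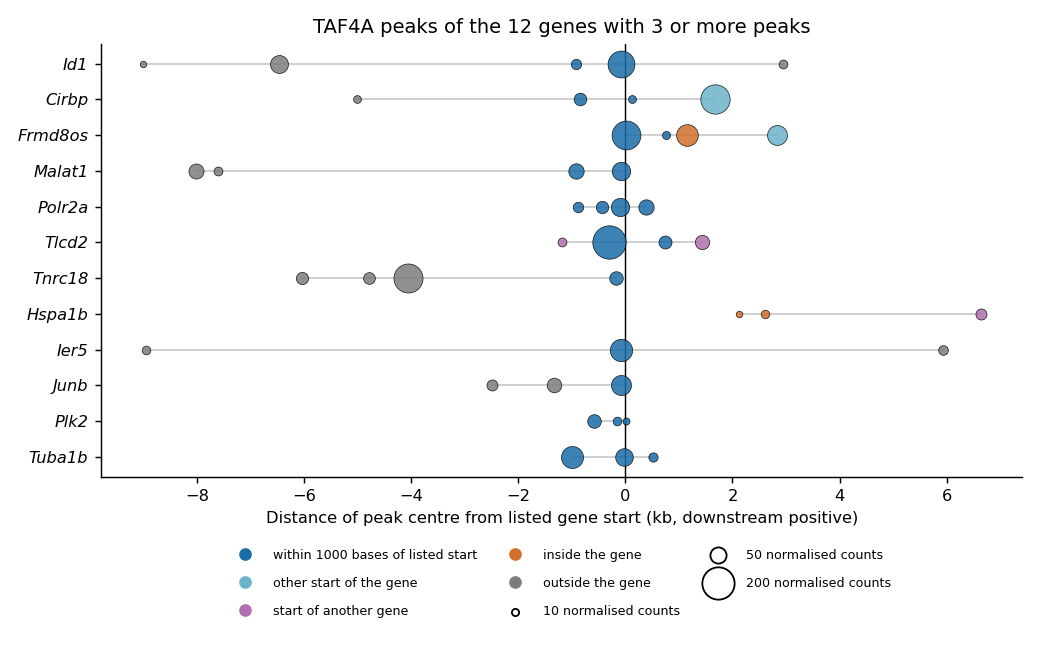
Positions of the peaks of the 12 genes with 3 or more peaks. The horizontal axis is the distance of the peak centre from the listed gene start in kb, the area of each circle is the mean normalised count of the 3 TAF4A libraries, and the colour gives the kind of position. The largest circle lies within 1000 bases of the listed start in 9 genes, while in Cirbp, Tnrc18 and Hspa1b it lies at 1671, -4066.5 and 6634 bases.

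Id1 (ENSMUSG00000042745, chromosome 2, plus strand), an inhibitor of basic helix-loop-helix factors such as MYOD, had the longest series. Its peaks were centred at -9011.5, -6476.5, -925, -85.5 and 2946 bases from the listed start, with negative values upstream. The peak at -85.5 bases (152735946 to 152736385) had 213, 95 and 117 counts in replicates 1, 2 and 3. After scaling of the libraries, its normalised count was 138.3 ± 20.6 (SD, n = 3). The peak at -6476.5 bases (152729616 to 152729933), outside any annotated gene, had 99, 37 and 56 counts, or 61.6 ± 12.3 normalised. It thus held fewer counts than the promoter peak in each library and more than the other 3 peaks, whose means were between 8.03 and 20.3. Its paralogue Id3 (chromosome 4) had a peak of 157.6 ± 27.2 at 128 bases and a smaller one of 21.7 ± 4.36 at -2935 bases.

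The immediate early genes Junb, Jun and Ier5, which respond to growth factors within minutes, each had a strong promoter peak and weaker companions. Junb (chromosome 8, minus strand) had 3 peaks on its upstream side, at -87, -1339.5 and -2499 bases. The counts of the first were 107, 51 and 75, those of the second 56, 28 and 39, and those of the third 39, 21 and 10, so that counts were lower with distance in every library. Ier5 (chromosome 1, minus strand) had the widest spread, from -8958 to 5923.5 bases. Its promoter peak at -88 bases had 123, 76 and 84 counts, while both outer peaks, in no annotated gene, had between 9 and 24. Jun (chromosome 4, minus strand) had 64, 69 and 74 counts at -48.5 bases and 9, 13 and 42 counts at 581 bases. The latter lay in an annotated UTR of Jun and 107 bases from the start of Junos. Myc had 25.4 ± 3.08 at 160 bases and 12.6 ± 6.56 at -181.5 bases.

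Genes of the transcription machinery included Polr2a, the largest subunit of RNA polymerase II, Gtf2a1 and Taf4 itself. All 4 peaks of Polr2a (chromosome 11, minus strand) lay within 1000 bases of its start, at -886.5, -433, -92.5 and 384 bases, so that they formed 1 run of 1270.5 bases between the outer centres. From the first to the fourth their normalised counts were 21.1 ± 7.66, 29.4 ± 6.53, 64.6 ± 6.68 and 44.9 ± 7.54 (SD, n = 3). Taf4 (ENSMUSG00000039117, chromosome 2, minus strand), which encodes TAF4A, had 38, 17 and 8 counts at -255.5 bases (179976832 to 179976971), 48.5 bases from the start of 4921531C22Rik. A second peak at -3331 bases (179979825 to 179980129), in no annotated gene, had 68, 29 and 45 counts and was the higher one in each library. Ing1, a histone-reading subunit of the SIN3 histone deacetylase complex, had 64.8 ± 9.29 at 388.5 bases and 122.9 ± 33.4 at 2623 bases, 2 bases from another annotated start. Sp1, a zinc finger factor of GC-rich promoters, had 116.4 ± 32.9 at -54 bases and 18.1 ± 12.7 at -479 bases.

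Among the genes with 3 or more peaks, Malat1 and Frmd8os were noncoding. Tlcd2 and Zbtb37 are protein-coding, but their main peaks lay near starts of noncoding genes. Malat1 (chromosome 19, minus strand), a nuclear long noncoding RNA, had peaks at -84 and -922.5 bases with 65.3 ± 7.28 and 45.3 ± 6.17 normalised counts, and a more distant pair at -7613 and -8027.5 bases with 15.2 ± 4.98 and 43.4 ± 6.39. The peaks listed for Frmd8os (chromosome 19, plus strand) began 151 bases from the start of Neat1, the RNA scaffold of paraspeckles. Counts of the peak at 6 bases (5845361 to 5845897) were 322, 69 and 132. The peaks inside Frmd8os at 1146.5 and 2840.5 bases had 149, 64 and 65 and 144, 48 and 49 counts, and replicate 1 was highest at each. The peaks listed for Tlcd2 (chromosome 11, plus strand) lay around Mir22hg, the host of miR-22. Its main peak at -304.5 bases was 128.5 bases from the start of Mir22hg and had 340, 151 and 167 counts, whereas the other 3 had means of 15.1 to 39.3. The strong peak listed for Zbtb37 was 24.5 bases from the start of Gas5, a host of small nucleolar RNAs.

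Stress-response genes differed in layout. Cirbp, a cold-inducible RNA-binding protein, had its main peak at 1671 bases in an intron, 122 bases from another annotated start, with 273, 113 and 126 counts, and 12.0 ± 5.36 normalised counts at 132 bases. Likewise, the chaperone gene Hsp90aa1 (chromosome 12, minus strand) had 144, 47 and 75 counts at 6262 bases, 71 bases from another annotated start, and 40, 20 and 11 at -551 bases. Hspa8, which encodes the constitutive HSC70, and the polyubiquitin gene Ubb had nearly all of their counts at 1 promoter peak, 144.8 ± 42.1 and 137.0 ± 38.1. Hspa1b, an inducible HSP70 gene, had no peak at its start. Of its 3 peaks 2 lay in its exon, at 2125 and 2603.5 bases, the latter in an annotated UTR. The other was 133 bases from the start of 1110038B12Rik. Hspa1b has a near-identical neighbour, Hspa1a, and reads matching several places had been removed, so its counts are uncertain. The same holds for Ubb, the tubulin genes, Rpl10 and Ftl1, which have near-identical relatives or repeats.

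Tnrc18 (chromosome 5, minus strand), a large nuclear protein gene, had its highest peak away from the promoter. It had 242, 119 and 132 counts at -4066.5 bases (142821523 to 142821934), in no annotated gene, against 54, 17 and 39 at -166.5 bases. Plk2 had 3 peaks within 597 bases, and the one farthest from the start, at -589.5 bases, had 47, 23 and 37 counts against 11, 16 and 12 at -159 bases and 13, 7 and 8 at 7.5 bases. In Tuba1b, the outer peak at -988.5 bases, 906.5 bases from the start of Gm41396, had 129, 69 and 81 counts against 91, 36 and 57 at -31.5 bases. Prmt1, an arginine methyltransferase, had 31, 15 and 14 counts at 111 bases and 18, 9 and 12 in an intron at 2010 bases.

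The 98 pairs of neighbouring peaks within a gene were close together. The median spacing of their centres was 989.2 bases (quartiles 630.5 and 1895, range 166.5 to 8870), and 50 pairs were under 1000 bases. Centres were closest in Plk2 (166.5 bases), Rras (206 bases), Tomm40 (219.5 bases) and Dmpk (245.5 bases). They were farthest apart in Ier5 (8870 bases), the noncoding gene 1700025L06Rik (8744 bases), Serpinh1 (7073 bases), Hsp90aa1 (6813 bases) and Malat1 (6690 bases). In 13 pairs the edges were under 200 bases apart, which a single fragment can span, and how such fragments were counted is not given in the sources used here. Merging peaks whose edges were under 500 bases apart left 58 genes with 2 or more peaks, and merging those under 1000 bases apart left 35.

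Peak positions were then sorted by distance to annotated starts, each peak into the first class that applied. Of the 176 peaks, 102 (58.0%) were centred within 1000 bases of the listed start, 17 (9.66%) within 1000 bases of another start of the same gene, and 13 (7.39%), of those left, within 1000 bases of the start of another gene. Whatever their class, 49 of the 176 peaks had a start of another gene within 1000 bases, and for 34 the nearest start belonged to another gene. Another 17 peaks (9.66%) were inside the gene, 14 of them in introns and 3 in exons, and 27 (15.3%) were outside it. Of these 27, 23 were upstream and 23 in no annotated gene. By gene, 35 of the 78 combined a peak at the listed start with a peak elsewhere, 29 had all peaks at the listed start and 14 had none there. With a window of 2000 bases 23 genes combined both, and with a window of 500 bases 51 did.

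Among the 29 genes with all peaks at the listed start, 18 had a peak on each side of it. These were Actb, Atf4, Azin1, Eif1, Emp3, Gapdh, Gsk3b, Hspa8, Jun, Mus81, Myc, Plk2, Polr2a, Rbx1, S100a11, Tuba1b, Tuba1c and Vim. In Actb, which encodes β-actin, the counts were 44, 26 and 26 at -27 bases and 39, 16 and 24 at 635.5 bases. Eif1, a factor of start codon selection, had 175, 95 and 112 counts at -38.5 bases and 52, 34 and 32 at 584.5 bases. Both peaks lay upstream in 9 genes (among them Arid1a, Cited2, Eef2, Mboat7, Rpl10, Rras, Sp1 and Tomm40) and downstream in Dmpk and Rdh5. At Mboat7, a start of Tsen34 was nearer than the listed one for both peaks.

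Of the 35 genes with a peak at the start and another elsewhere, 9 had the other peak at an alternative start (Chd2, Cirbp, Ddx39b, Ddx5, Frmd8os, Hsp90aa1, Ing1, Nasp and Tyw1) and 5 at the start of another gene (Ccn1, Kmt2e, Tlcd2, Ubb and Zbtb37). Another 9 had it inside the gene (AC166654.1, Frmd8os, Gtf2a1, Iffo1, Naca, Ncam1, Prmt1, Srsf3 and Tubb2a). In 14 it lay outside (among them 1700025L06Rik, Actg1, Amn1, Cirbp, Ftl1, Id1, Id3, Ier5, Junb, Malat1, Serpinh1, Taf4 and Tnrc18), and Cirbp and Frmd8os count under 2 of these kinds. In Srsf3, a splicing factor of the SR family, the counts were 43, 14 and 18 at -10 bases and 71, 34 and 29 in an exon at 1765.5 bases. Kmt2e, a relative of histone methyltransferases, had 77, 46 and 39 counts at -1132 bases, at a start of 5031425E22Rik, and 20, 7 and 5 at -222.5 bases.

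The 14 genes without a peak at the listed start comprised 4 with every peak at another start, among them Amotl2 and Ywhaz at starts of their own and Gm13283 at those of other genes. Cdkn1a, Cdon, Flna and Sin3a had 1 peak at an alternative start and 1 inside the gene. For Cdon, a co-receptor that promotes myogenic differentiation, these had 34, 22 and 26 counts at 2416 bases and 38, 30 and 33 at 3753 bases, and were close in each library. Both peaks of Nctc1, a noncoding gene of the mesodermal Igf2 and H19 region, were in an intron at 7502 and 8363 bases, with 42.0 ± 16.1 and 23.2 ± 7.44 normalised counts. Abt1 and Gm25720 each had a peak at the start of another gene and a peak outside, Hspa1b had its peaks as given above, and 2610105M22Rik had both outside. The peaks listed for Setd5 lay in Gt(ROSA)26Sor, with 8, 540 and 229 counts at -4414.5 bases and 0, 136 and 63 at -3633.5 bases. The sum over both was far lower in replicate 1, so the mean does not describe the group. A count of 0 among the 8 counts of replicate 1 allows a share of up to 37.5% at the second peak, by counting error only.

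Next, it was asked how the counts of a gene were divided among its peaks. The highest peak held a median of 64.9% of the counts of a gene (quartiles 55.6% and 74.8%), with library medians of 65.1%, 65.0% and 64.0%. Because the peak with most counts was taken, this share cannot fall below an even division by much. It ranged from 38.7% in Malat1, which has 4 peaks, to 94.9% in Ubb. Among the 66 genes with 2 peaks, the share was over 75% in 19 and under 60% in 25. In Ubb the highest peak held 94.9% ± 1.17 (SD, n = 3), in Ddx5, an RNA helicase, 94.7% ± 1.59, and in Atf4, a factor of the integrated stress response, 93.3% ± 3.33. Among the lower shares was that of Dmpk, 52.4% ± 2.12. Counted per base, the library medians averaged 56.9%.

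**Figure D2:**
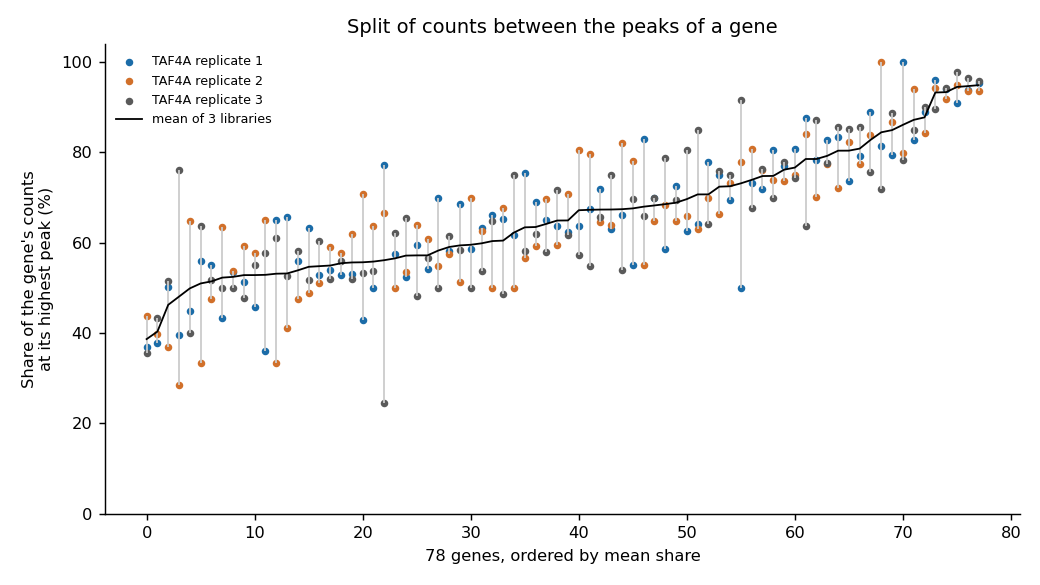
Share of the counts of a gene at its highest peak, in percent, for the 78 genes ordered by their mean share. Coloured points are the 3 TAF4A libraries, grey lines span their range, and the black line is the mean, with a median of 64.9%.

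The same peak was highest in all 3 libraries in 55 of 78 genes, and in the other 23 it was tied or lower in at least 1 library. The highest peak was the one nearest the listed start in 43 genes and another peak in 35. At the level of pairs, the same peak was higher in all 3 libraries in 72 of 98 (73.5%), against 68.3% of all 1111 pairs of neighbouring peaks on a chromosome. It was the nearer peak in 44 pairs and the farther one in 28. Among 61 neighbouring pairs listed for different genes with centres under 10000 bases apart the share was 75.4%, so that the value for the 78 genes was near the background. In Azin1, an inhibitor of antizymes, the peak at -77.5 bases had 76, 52 and 61 counts and that at 900 bases had 99, 30 and 61, so the order turned between replicates 1 and 2. In Dmpk and Gtf2a1 the peaks were tied in 1 library, and the same peak was higher in the others.

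Whether the nearer and the farther peak of a pair differed by more than the spread between libraries was tested with edgeR's quasi-likelihood test over all 1111 neighbouring pairs, with the library as block and Benjamini-Hochberg adjusted p under 0.05 as threshold. The nearer peak of a pair is the one closer to its own listed start. All pairs include the 122 peaks without a listed gene, which have no such start and were taken as the farther peak. The 98 pairs hold no such peak. Peaks without a listed gene also had a lower median normalised count than all peaks. The shares and medians of all pairs are thus not a like-for-like background for the direction of a difference. Of the 98 pairs, 38 passed with the nearer peak higher, or 38.8%, against 32.8% of all pairs. With the farther peak higher 23 passed, or 23.5%, against 21.7% of all pairs, and 37 did not pass. The median difference, nearer minus farther, was 0.29 on the log2 scale in the 98 pairs and 0.24 in all pairs. Because all pairs were made up differently, these values do not show how the members compare with neighbouring peaks in general.

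Among the largest differences in favour of the nearer peak were those in Ubb (log2 difference 4.20, SE 0.38, adjusted p = 1.11e-24), Ddx5 (4.11), Zbtb37 (3.97), Atf4 (3.89) and Hspa8 (3.83). Those in favour of the farther peak included Cirbp, with the peak at 132 bases below that at 1671 bases (log2 difference -3.84, SE 0.38, adjusted p = 6.45e-22), and also Frmd8os (-2.81), Kmt2e (-2.42) and Tnrc18 (-2.20). All of these 9 passed in each of the 3 fits that left out 1 library. The order in Taf4, with the distant peak higher (log2 difference -1.26, SE 0.36, adjusted p = 0.0014), did not pass without replicate 3 (adjusted p = 0.1). Counted per base, the Taf4 difference was -0.14 (SE 0.36, adjusted p = 0.839) and did not pass. For Prmt1 the difference of 0.59 (SE 0.47, adjusted p = 0.301) did not pass.

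Width moved with these counts. Across the 176 peaks, which share 3 libraries, log2 width and log2 normalised count had an r of 0.91, and the highest peak was also the widest in 70 of 78 genes. Since the authors' peak caller sets width from the same reads, the comparison was repeated with width as an offset. Per base, the nearer peak was higher in 21 of 98 pairs, or 21.4%, against 13.5% of all pairs. The farther peak was higher in 3, or 3.06%, against 6.03% of all pairs, and 74 pairs did not pass. The 3 were in Tnrc18 (-1.51, SE 0.34), Cirbp (-1.37, SE 0.38) and Frmd8os (-1.27, SE 0.35). Without replicate 2 only the Cirbp pair passed, and without replicate 1 it did not (adjusted p = 0.138). The largest per base in favour of the nearer peak were in Ier5 (2.23, SE 0.34) and Zbtb37 (2.19, SE 0.41), and both passed without any 1 library. Over all 98 pairs the median per base was 0.07, against 0.12 for all pairs. The limit given above for the values of all pairs holds per base too. All 24 pairs that passed per base also passed per peak, and in each of them the higher peak was the wider one. The calls per base thus still went with width.

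**Figure D3:**
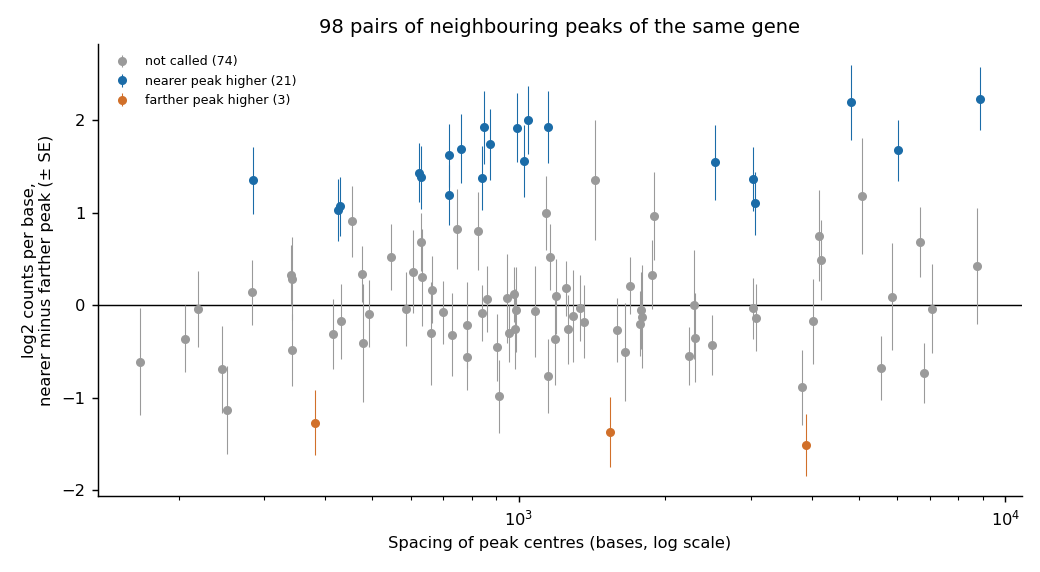
Difference between the nearer and the farther peak of 98 neighbouring pairs within a gene, in log2 counts per base with its standard error, against the spacing of the peak centres in bases on a log axis. Blue points (21) passed with the nearer peak higher, orange points (3) with the farther peak higher, and grey points (74) did not pass.

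For the 39 pairs with 1 peak within 1000 bases of the listed start and the other farther away, the median difference per base was 0.05, 0.59 and 0.02 in replicates 1, 2 and 3 on a log2 scale with a pseudocount of 1. The mean of 0.22 ± 0.32 (SD, n = 3) was smaller than its spread, and replicate 2, the library with fewest counts, stood above the others. Without replicate 2 the mean was 0.03. No difference between start peaks and companion peaks was thus detectable over these pairs as a whole.

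It was then asked whether the division of counts between 2 peaks was the same in every library. An exact Fisher test of the 2 peaks by 3 libraries, adjusted over all 1111 neighbouring pairs, passed for 4 of 98 pairs (4.08%), against 10.9% of all pairs and 8.20% (5 of 61) of the neighbouring pairs of different genes under 10000 bases apart. This test measures counting noise only and needs no scaling. The 4 pairs were in Hspa1b (adjusted p = 0.00136), Jun (adjusted p = 0.00458) and Id1 (2 pairs, adjusted p = 0.0336 and 0.0392). With counts halved 0 pairs passed and by a chi-square test 2 did, and each of the 4 pairs had a count under 10 in a library. At an unadjusted p under 0.05 there were 23 of 98 pairs and 287 of 1111.

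Replicate 3 was the library that differed in each of the 4 pairs. In Jun, it had 42 counts at 581 bases against 9 and 13 in replicates 1 and 2, at similar counts at -48.5 bases. In Hspa1b, replicate 3 had 25 counts in the exon at 2603.5 bases against 11 and 5, and 14 at 6634 bases against 44 and 16. The Hspa1b peak at 2125 bases was also high in replicate 3, with 18 counts against 2 and 3. In Id1, the peak at -925 bases was low in replicate 3, with 6 counts against 41 and 17, and it is shared by both pairs. Without replicate 3 none of the 4 pairs passed (adjusted p between 0.925 and 1), and without replicate 1 none did either (0.0849 to 0.163), whereas all 4 passed without replicate 2. The cause was not tested.

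**Figure D4:**
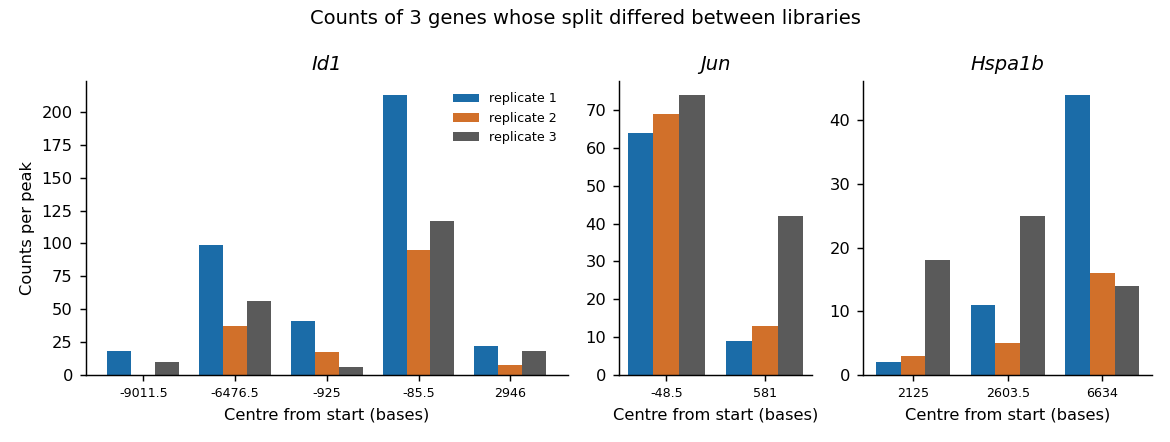
Counts of each peak of Id1, Jun and Hspa1b in the 3 TAF4A libraries, not normalised. The horizontal axis gives the distance of the peak centre from the listed start in bases. Replicate 3 (grey) is highest at the Jun peak at 581 bases and the Hspa1b exon peaks at 2125 and 2603.5 bases, and lowest at the Id1 peak at -925 bases.

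Peak by peak, the spread between the 3 libraries exceeded counting noise at 36 of the 176 peaks (20.5%; chi-square test, adjusted p under 0.05), against 17.9% of all 1131 peaks. These 36 peaks were in 25 genes. Both peaks passed in Amotl2 (adjusted p = 0.0184 and 0.0287), Jun, Rras, Serpinh1, Setd5 and Sp1, among others, and 2 or 3 of the peaks did so in Hspa1b, Id1 and Frmd8os. In Rras, a small GTPase of the RAS family, the counts were 83, 23 and 15 at -394.5 bases and 48, 24 and 14 at -600.5 bases, with replicate 1 above the others at both peaks. The lowest adjusted p-values were those of the Setd5 peaks (1.25e-212 and 5.67e-52). Without replicate 1, 6 of the 176 peaks passed, and without replicate 3, 15 did.

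Sequence was not used by the peak number and was examined in a window of 200 bases around each peak centre. The median width was 175.5 bases for the 176 peaks and 161 for all peaks, so that the window ran past the edges of most peaks and a motif in it can lie outside the peak. Motifs were searched on both strands as NF-Y (CCAATCA), SP1 (GGGCGGG), AP-1 (TGANTCA), the cAMP response element or CRE (TGACGTCA), a myogenic type of E-box (CAGCTG), the CArG box of serum response factor and the heat shock element. None of the letter strings contains another. A match is a description and no proof of a bound factor. Other forms of these sites were not searched, so a window without a match may still hold one. The shares were not tested, because the members had been chosen on peaks of the same libraries.

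Of the 176 windows, 19 (10.8%) held the NF-Y motif and 56 (31.8%) the SP1 motif, against 18.2% and 37.5% of all 1131 windows. In the 811 windows of genes with 1 peak the shares were 21.5% and 42.9%. The CRE was in 10 of the 176 windows (5.68%) against 2.74% of all windows, the CArG box in 7 (3.98%) against 1.41%, and the heat shock element in 4 (2.27%) against 0.796%. AP-1 was in 13.6% and the E-box in 17.0%, against 10.8% and 13.7% of all windows. The median GC content of the windows was 61.8% for the peak nearest the start, 57.2% for the other peaks of these genes and 60.5% for genes with 1 peak. The ratio of observed to expected CpG was 0.73, 0.48 and 0.77 in the same order.

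**Figure D5:**
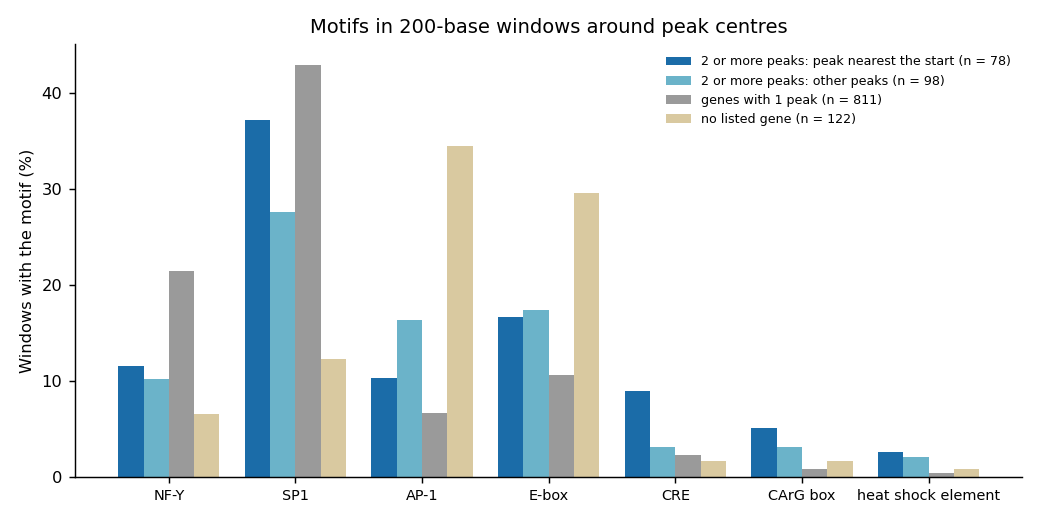
Share of 200-base windows around peak centres with each motif, in percent, for the 78 peaks nearest the start and the 98 other peaks of genes with 2 or more peaks, the 811 peaks of genes with 1 peak and the 122 peaks without a listed gene. SP1 is in 37.2% of the windows of the nearest and 27.6% of those of the other peaks, and AP-1 in 10.3% and 16.3%.

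The NF-Y string CCAATCA was in 2 or more windows of Gsk3b and Tlcd2, in 1 window of 15 genes and in none of 61. The study reports that most TAF4A peaks coincided with NF-YA peaks of its CUT&RUN, which this string does not measure. SP1 was in 2 or more windows of 8 genes and in 1 window of 40. No gene had a CRE, a CArG box or a heat shock element in more than 1 window. The NF-Y sites at the highest peaks of 4 genes are shown first, since the study examined NF-Y at TAF4A peaks. All sequences are GRCm38 (mm10), read 5′ to 3′ on the strand of the listed gene, with the motif or its reverse complement in capitals, and each motif shown lies within its peak.
Atf4 NF-Y, chr15:80255078-80255144, plus strand: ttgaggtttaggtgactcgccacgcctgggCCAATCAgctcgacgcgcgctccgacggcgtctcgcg
Tlcd2 NF-Y, chr11:75461462-75461528, plus strand: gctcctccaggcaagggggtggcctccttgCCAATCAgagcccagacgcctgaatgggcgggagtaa
Cirbp NF-Y, chr10:80167628-80167694, plus strand: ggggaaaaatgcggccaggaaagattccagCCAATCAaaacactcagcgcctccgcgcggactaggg
Ier5 NF-Y, chr1:155099648-155099714, minus strand: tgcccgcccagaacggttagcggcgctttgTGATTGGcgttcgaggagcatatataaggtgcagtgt

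Relative to the listed start, these sites were centred at -73 bases in Atf4, -220 in Tlcd2 and -45 in Ier5, and at 1676 bases in Cirbp, at its main peak. Ier5 had a second site at -107 bases. In Tlcd2 the weakest peak also held a site, at -1127 bases.

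CREs, the binding sites of CREB and ATF factors, were found in 1 window each of Abt1, Amn1, Amotl2, Azin1, Chd2, Plk2, Tubb2a, Tyw1, Ywhaz and Zbtb37. Those of 4 genes are shown, as they lie at starts of unlike genes.
Zbtb37 CRE, chr1:161035090-161035157, minus strand: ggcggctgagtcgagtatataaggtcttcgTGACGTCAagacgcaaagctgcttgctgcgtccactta
Azin1 CRE, chr15:38519287-38519354, minus strand: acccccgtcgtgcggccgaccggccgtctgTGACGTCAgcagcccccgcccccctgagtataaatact
Tubb2a CRE, chr13:34078030-34078097, minus strand: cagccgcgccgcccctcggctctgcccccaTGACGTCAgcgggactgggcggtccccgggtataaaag
Chd2 CRE, chr7:73537861-73537928, minus strand: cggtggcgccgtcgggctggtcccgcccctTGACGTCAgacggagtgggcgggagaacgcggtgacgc

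The Zbtb37 site was at the strong peak near the start of Gas5, with 139, 56 and 85 counts. The site in Chd2, a chromatin remodeller, was at the higher peak at 3887 bases (60, 31 and 42 counts), 70 bases from the start of Gm44686, and not at the listed start (12, 12 and 7 counts). The matches in the windows of Plk2 and Ywhaz lay outside the peaks.

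CArG boxes were found in windows of Actb, Actg1, Gapdh, Tyw1, Mus81, Ccn1 and Flna. They are known as binding sites of serum response factor. The sites of 3 genes outside UTRs are shown.
Actg1 CArG box, chr11:120348546-120348615, minus strand: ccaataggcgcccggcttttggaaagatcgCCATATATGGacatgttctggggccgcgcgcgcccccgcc
Ccn1 CArG box, chr3:145651864-145651933, minus strand: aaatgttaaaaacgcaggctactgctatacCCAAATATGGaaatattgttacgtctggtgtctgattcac
Mus81 CArG box, chr19:5489077-5489146, minus strand: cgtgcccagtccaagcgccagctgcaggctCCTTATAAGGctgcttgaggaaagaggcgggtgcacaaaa

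In Actg1 the site was at the start peak, which had 26, 24 and 12 counts against 32, 13 and 18 at -1797 bases. In Ccn1, a matricellular protein gene, it was at the distant peak at -1947.5 bases (24, 18 and 14 counts), below the start peak (41, 32 and 42 counts). In Mus81 it was at the higher peak at -760.5 bases. In Flna, which encodes the actin cross-linker filamin A, it lay outside the peak at 4939 bases.

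Heat shock elements were in windows of Hspa8, Hsp90aa1, Serpinh1 and Polr2a, of which the first 3 encode chaperones. They were in the window of the higher peak of Hspa8, Hsp90aa1 and Serpinh1, and in that of the second peak of Polr2a. The Polr2a site and the AP-1 site at the distant peak of Taf4 are shown. The first is from the run of 4 peaks at the start and the second from the Taf4 peak with more counts.
Polr2a heat shock element, chr11:69759055-69759127, minus strand: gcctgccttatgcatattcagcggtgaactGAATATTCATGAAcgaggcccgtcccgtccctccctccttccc
Taf4 AP-1, chr2:179979922-179979988, minus strand: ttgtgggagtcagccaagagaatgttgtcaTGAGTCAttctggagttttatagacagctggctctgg

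Relative to the listed starts, these sites were centred at -454 and -3309 bases.

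Finally, the 78 genes were set against functional lists. Of the 857 genes with a peak and outside the histone group, 78 (9.1%) were members. They made up 8 of 38 transcription factor genes (21.1%; Atf4, Id1, Id3, Jun, Junb, Myc, Sp1 and Zbtb37), 9 of 36 chromatin and transcription machinery genes (25%; Arid1a, Chd2, Gtf2a1, Ing1, Kmt2e, Polr2a, Prmt1, Setd5 and Taf4) and 8 of 31 cytoskeleton, adhesion and matrix genes (25.8%; Actb, Actg1, Ccn1, Flna, Tuba1b, Tuba1c, Tubb2a and Vim). Id proteins are on the first list although they lack a DNA-binding domain, and some peaks of these genes were nearer to the start of another gene, including the main peaks of Zbtb37, Chd2 and Kmt2e and the start peak of Taf4. Both peaks listed for Setd5 lay inside Gt(ROSA)26Sor and none at its own start.

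Other lists had smaller shares. Members were 5 of 35 proteasome, ubiquitin and chaperone genes (14.3%), 2 of 13 translation genes (15.4%, Eef2 and Eif1), 2 of 16 cell cycle genes (12.5%, Cdkn1a and Plk2), 3 of 33 splicing and RNA-binding genes (9.09%, Cirbp, Ddx5 and Srsf3), 5 of 68 genes of the list of noncoding and small RNA host genes (7.35%) and 1 of 11 mitochondrial genes (9.09%, Tomm40). Of 43 cytosolic ribosomal protein genes with a peak, only Rpl10 (2.33%) had 2. Its peaks at -64.5 and -494 bases had 140, 58 and 76 and 29, 17 and 22 counts. Of 5 myogenic genes with a peak, 0 had 2 or more. The lists were made by name patterns and the shares were not tested. The pattern for noncoding genes took in Gm13283, which is protein-coding in GENCODE, and missed Frmd8os, Nctc1 and AC166654.1, so its share is not that of the 7 noncoding members.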

How the data were processed

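CUT&RUN had been performed with a TAF4A antibody and with IgG in cultured wild-type MuSCs, 3 libraries each. The authors trimmed reads (Trimmomatic 0.39), aligned them with STAR 2.7.9a to mm10, and removed duplicate (Picard 2.21.7 per the labels), spliced, multi-mapping, ribosomal and mitochondrial reads. They called peaks in each TAF4A library against IgG (MACS, FDR under 0.05), unified them into 1 set, and assigned each peak to a gene start within 10000 bases. A peak called in 1 library is thus in the set for all. The deposited values are counts per peak from featureCounts for the 3 TAF4A libraries. The methods also name a DESeq2 normalisation, but the values are whole numbers with unequal totals and were therefore taken as raw counts. The authors' table also gives each peak's distance to the listed start, and 0 columns of values were left unused. IgG counts were not analysed here.

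Genes and lists were chosen with earlier results of these data known. Gene IDs with 2 or more peaks were kept, apart from histone genes and 1 noncoding gene. Starts, introns, exons and UTRs came from GENCODE M21 on GRCm38, and 7 genes without a listed symbol were named from it. Positions are on mm10, and distances are negative upstream. Libraries were scaled with TMM (edgeR 4.0.16, R 4.3.3) to give normalised counts.

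Neighbouring peaks were compared with edgeR's quasi-likelihood test with the library as block, also with log width as offset, and DESeq2 1.42.0 as alternative. Division between libraries was tested with Fisher's exact test and single peaks with a chi-square test in scipy 1.17.1, all two-sided and with Benjamini-Hochberg adjustment over all pairs or peaks. Tests were checked on simulated data. Library p-values measure spread or counting noise among 3 libraries, and the limit for a count of 0 is 3 counts of the total, for counting error only.

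Named genes were those with 3 or more peaks, the 10 with most counts, the 5 closest and 5 farthest spacings, the lowest adjusted p-values of the division test, the 5 largest differences in each direction, Prmt1 and any myogenic gene. Other genes given as examples of a layout, motif or list were chosen after their values were seen. A few genes that these rules select are not reported here.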

Additional observations from a re-analysis of the deposited data

How the results depend on the processing

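The number of genes with 2 or more peaks was 78, and it was 35 with peaks under 1000 bases apart merged and 44 with peaks of at least 10 counts in every library. Assignment to the nearest annotated start gave 81 genes, of which 57 were shared. Genes with a peak at the listed start and another elsewhere numbered 35, and 23 with a window of 2000 bases or 20 with at least 10 counts. The share at the highest peak was 64.7%, 56.9% per base and 62.7% with at least 10 counts, and ranged from 64.6% to 65.6% without 1 replicate. The same peak was highest in 55 genes, in 42 per base, in 32 with at least 10 counts, and in 60 to 64 without 1 replicate, where fewer libraries had to agree.

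Pairs whose division differed between libraries numbered 4. There were 0 with counts halved, 0 with at least 10 counts, 2 by chi-square test, 2 at an adjusted p under 0.01, and 0 to 6 without 1 replicate. Pairs with a difference in counts numbered 61, and 24 per base, 30 with at least 10 counts, 47 with the DESeq2 Wald test and 49 to 53 without 1 replicate. With the nearer peak higher these were 38, 21 per base, 16 with at least 10 counts and 32 to 35 without 1 replicate. With the farther peak higher they were 23, 3 per base, 14 with at least 10 counts and 17 to 18 without 1 replicate. Per base without 1 replicate, which was added after seeing the data, 14 to 21 pairs had the nearer and 1 to 3 the farther peak higher. Peaks at which libraries differed numbered 36, and 6 to 35 without 1 replicate. The log2 difference between start and other peak was 0.22, and 0.03 to 0.32 without 1 replicate. The filter on 10 counts leaves fewer peaks, and the cause of the other changes was not tested.

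Per base, some called pairs no longer passed, such as Rdh5 (log2 difference 1.02 per peak and -0.09, SE 0.36, per base) and Gsk3b (-0.99 and 0.14, SE 0.35). The farther peak was higher in 23.5% against 21.7% of all pairs per peak, and in 3.06% against 6.03% per base. The nearer peak was higher in 38.8% against 32.8% per peak, and in 21.4% against 13.5% per base. The median difference, nearer minus farther, was 0.29 against 0.24 per peak and 0.07 against 0.12 per base. In these comparisons all pairs include peaks without a listed gene, taken as the farther peak, so the background is not like for like. Within libraries, neighbouring peaks were compared with the library as block. TAF4A was not compared with IgG. No paired analysis was possible because, between these antibodies, the table used here holds counts of the TAF4A libraries alone. Depth limits the weaker peaks, since 32 of 176 had under 10 counts in replicate 2.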
